A study of Homo sapiens with 19 samples.

Results

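Alternative 3′ splice site events in which the 2 acceptor sites lie more than 3 nt apart were described in human mammary epithelial cells before and after an epithelial-to-mesenchymal transition (EMT), with and without knockdown of the RNA-binding protein AKAP8. An event was a member when the exon made from the upstream site was more than 3 nt longer than the exon made from the downstream site. Of 3613 such events listed in the 3 comparisons, 2918 met this rule, and the other 695 had sites 3 nt apart or closer (676 at exactly 3 nt). The members comprised 2582 site pairs in 1998 genes, and the EMT comparison held 2590 of 3219 events, the EPI knockdown comparison 2585 of 3222 and the MES knockdown comparison 2386 of 2994. In 633 members the site pair was shared with another member that differed in the upstream exon, so these members shared reads.

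Poly(A) RNA was sequenced from HMLE/Twist-ER cells, an immortalized human mammary epithelial line that expresses a fusion of the transcription factor Twist and the estrogen receptor, which 20 nM tamoxifen activates. Untreated cells were the epithelial state (EPI) and tamoxifen-treated cells the mesenchymal state (MES). Cells of both states carried a lentiviral shRNA, either a control shRNA or one against AKAP8 (shAKAP8). The libraries were 3 EPI control, 3 EPI shAKAP8, 3 MES control and 2 MES shAKAP8, all from this single line, and the third MES control was present only in the EMT comparison. Per the study's methods the libraries of a group were biological replicates, so p-values measure the spread between replicates of 1 line.

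At the end of an intron, the branch point, a pyrimidine-rich tract and a terminal AG dinucleotide together define the 3′ splice site, and the U2AF heterodimer binds the tract and the AG. When 2 sites compete, use of the upstream site keeps the segment between them in the mRNA, and use of the downstream site removes it with the intron. A segment whose length is a multiple of 3 adds or removes amino acids within coding sequence, whereas any other length shifts the reading frame. AKAP8 is a nuclear scaffold protein that binds RNA and takes part in splicing regulation.

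The sequences of the sites on which the results turn are shown from GRCh37. Each run holds the last 20 bases of the intron followed by the first 3 bases of the exon, 5′ to 3′ on the strand of the gene, and the capitals mark the last 2 intron bases. The first set holds members whose upstream site was used less in MES. RASAL2, LMO7 and CLINT1 were added to it after their values were seen, because their calls held with any control library left out.
EXOC7 upstream site, chr17:74086560-74086582, minus strand: tccccctcctggagatgaAGggc
EXOC7 downstream site, chr17:74086476-74086498, minus strand: tgcggccgacatctcgccAGgtc
ATG16L2 upstream site, chr11:72532224-72532246, plus strand: cggtgtccttgtctgtgaAGtga
ATG16L2 downstream site, chr11:72532693-72532715, plus strand: gcccacctgtccgcccccAGatg
DDIT3 upstream site, chr12:57911376-57911398, minus strand: cttcatctctgccactgtAGcac
DDIT3 downstream site, chr12:57911205-57911227, minus strand: ctgcagatgtgcttttccAGact
A1BG-AS1 upstream site, chr19:58864667-58864689, plus strand: cttctgtcactgggccccAGgtg
A1BG-AS1 downstream site, chr19:58864725-58864747, plus strand: cccgccccctcccgccccAGgga
KANSL3 upstream site, chr2:97297278-97297300, minus strand: atacattttttgtcaaccAGatg
KANSL3 downstream site, chr2:97297217-97297239, minus strand: atttcctcacctgtttacAGtga
RASAL2 upstream site, chr1:178425815-178425837, plus strand: aatgcttattatccaattAGggt
RASAL2 downstream site, chr1:178425836-178425858, plus strand: gtgaaaattccttcctacAGgcg
LMO7 upstream site, chr13:76409268-76409290, plus strand: gatcttcatgtgccaatcAGact
LMO7 downstream site, chr13:76409349-76409371, plus strand: tatggctaccaaaattatAGgtt
CLINT1 upstream site, chr5:157216573-157216595, minus strand: agcatttttctattttccAGcct
CLINT1 downstream site, chr5:157216519-157216541, minus strand: ctaatcctctctataatcAGaat

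The second set holds members whose upstream site was used more in MES, and RYK was included because its upstream site ends in TG. In MAPK8, HACE1, PCNX and RYK the 2 sites lay so close that the runs overlapped.
TKT upstream site, chr3:53271935-53271957, minus strand: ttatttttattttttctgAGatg
TKT downstream site, chr3:53271834-53271856, minus strand: tgattctcctcctgcctcAGcct
CEP170B upstream site, chr14:105355832-105355854, plus strand: aaaccaattcactcaccaAGaca
CEP170B downstream site, chr14:105355937-105355959, plus strand: acgctcccacacctcaacAGcca
MAPK8 upstream site, chr10:49642902-49642924, plus strand: tgctgttttgtttctcatAGcac
MAPK8 downstream site, chr10:49642907-49642929, plus strand: ttttgtttctcatagcacAGgtg
HACE1 upstream site, chr6:105224983-105225005, minus strand: aaccaatgctacatatttAGatt
HACE1 downstream site, chr6:105224970-105224992, minus strand: tatttagattctatttttAGgag
PCNX upstream site, chr14:71479682-71479704, plus strand: caatgctgactttcttttAGctc
PCNX downstream site, chr14:71479697-71479719, plus strand: tttagctctctctcccacAGatt
RYK upstream site, chr3:133910825-133910847, minus strand: tgcttggtttggctttgtTGgct
RYK downstream site, chr3:133910816-133910838, minus strand: tggctttgttggctccttAGgtt

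The third set holds the members that changed after AKAP8 knockdown in MES, PFN2 and PFDN5. It also holds 3 competing sites of FN1, whose last site was shared by the 285 and the 360 nt events, and FN1 was added after its values were seen.
PFN2 upstream site, chr3:149684371-149684393, minus strand: ttttcttctttctctttcAGtct
PFN2 downstream site, chr3:149684049-149684071, minus strand: tgtttccttgtgtactccAGcat
PFDN5 upstream site, chr12:53690194-53690216, plus strand: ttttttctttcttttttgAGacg
PFDN5 downstream site, chr12:53691614-53691636, plus strand: ccttaattcttgcttctcAGatg
FN1 first site, chr2:216237096-216237118, minus strand: ctctaacctctctcggctAGacg
FN1 middle site, chr2:216237021-216237043, minus strand: cttggatgttccttccacAGttc
FN1 last site, chr2:216236736-216236758, minus strand: caatccaaatgcctctacAGgac

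The intron ended in AG at 98.7% of upstream and 99.8% of downstream sites, and the 18 bases before these 2 had a median of 72.2% C or T at both. Within the 2140 members tested in EMT (1982 distinct site pairs) the upstream site had the higher C or T content in 1087, the downstream site in 755, and the content was equal in 298. The base just before the AG was C at 64.7% of upstream and 73.4% of downstream sites. In the 28 members that changed in EMT, the median C or T content was also 72.2% at both sites, and C preceded the AG at 14 upstream and 18 downstream sites. Among the 7 of them that were higher in MES, the base before the terminal dinucleotide of the upstream site was C in 1, T in 4, A in 1 and G in 1, and at the downstream site it was C in 5. A run of GGG with A or T on at least 1 side, searched on the strand of the gene in the 100 bases before each site, was found at 65.4% of upstream and 64.7% of downstream sites of the members, against 63.5% and 62.7% over all 3613 events. It was found at 15 upstream and 18 downstream sites of the 28 members that changed in EMT. For sites less than 100 nt apart these windows overlap.

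The distance between the 2 sites ranged from 4 to 7173 nt with a median of 60 nt. It was a multiple of 3 in 1228 members (42.1%). The segment was coding in 1620 members (55.5%), partly coding in 750 (25.7%), in the 5′ UTR in 177 and in the 3′ UTR in 22. Among the coding members 809 (49.9%) had a distance that was a multiple of 3, compared with 419 of the 1298 others (32.3%). Both sites were mostly annotated, with 98.9% of upstream and 99.5% of downstream sites matching an annotated exon start.

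Each library contributed between 1054815 and 1567895 junction reads over all alternative 3′ splice site events of a comparison. The use of the upstream site was expressed as percent spliced in (PSI), the length-corrected share of reads that support the longer exon, and ∆PSI was MES minus EPI or knockdown minus control, in percentage points. Inclusion reads include those that cross the start of the short exon without splicing. Unspliced RNA, and transcripts from a further site or exon upstream, can therefore add to PSI, and their part was not tested. Junction reads of AKAP8 (scaled to library size) were 244 to 310 in EPI control and 98.8 to 124.8 in EPI shAKAP8, and 196 to 382 in MES control and 108 to 122 in MES shAKAP8, so the groups did not overlap in either state. The epithelial genes CDH1 (E-cadherin; 1251 to 1794 in EPI control, 41.2 to 118 in MES control) and ESRP1 (an epithelial splicing regulator; 3158 to 3658 and 118 to 282) and the mesenchymal genes VIM (vimentin) and FN1 (fibronectin) separated the EPI and MES controls in the direction of the labels. The spread was taken over the 1714 members tested in every comparison (a mean of at least 20 junction reads per library) with reads in all libraries. For these better-covered members, each library was compared with the mean of the other libraries of its group. The median absolute difference was 1.65 to 1.92 percentage points, and 6.65% to 10.6% of members deviated by over 10 points. In MES shAKAP8 this is the difference between its 2 libraries.

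The upstream site was the main site of most members in all 4 groups, and its use varied with the distance to its competitor. Over the same 1714 members the median PSI was 82.8% in EPI control, 81.9% in EPI shAKAP8, 81.9% in MES control and 79.9% in MES shAKAP8. Members with sites 13 to 24 nt apart stood apart, with median PSI values of 14.5%, 15.1%, 13.8% and 11.7% in the same order (n = 257). In EPI control 44.7% of these members had a PSI below 10% and 23% a PSI above 90%. Sites 4 to 6 nt apart had a median PSI of 95.4% in EPI control, those 7 to 12 nt apart 88.9%, those 25 to 50 nt apart 75.6%, and those over 200 nt apart 95.6%. At the boundary of the rule, events with sites exactly 3 nt apart had a median PSI of 61.7% in EPI control (n = 441; quartiles 32.5% and 85.5%), compared with 97.6% at 4 nt (n = 73), 95.4% at 5 nt (n = 54) and 94.1% at 6 nt (n = 38). Both sites were used appreciably, at a PSI of 10% to 90%, in 534 members (31.2%) in EPI control. This share was 35.4% for distances that were a multiple of 3 and 27.9% for the others. These levels are a description over events, which are not replicates.

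**Figure D1:**
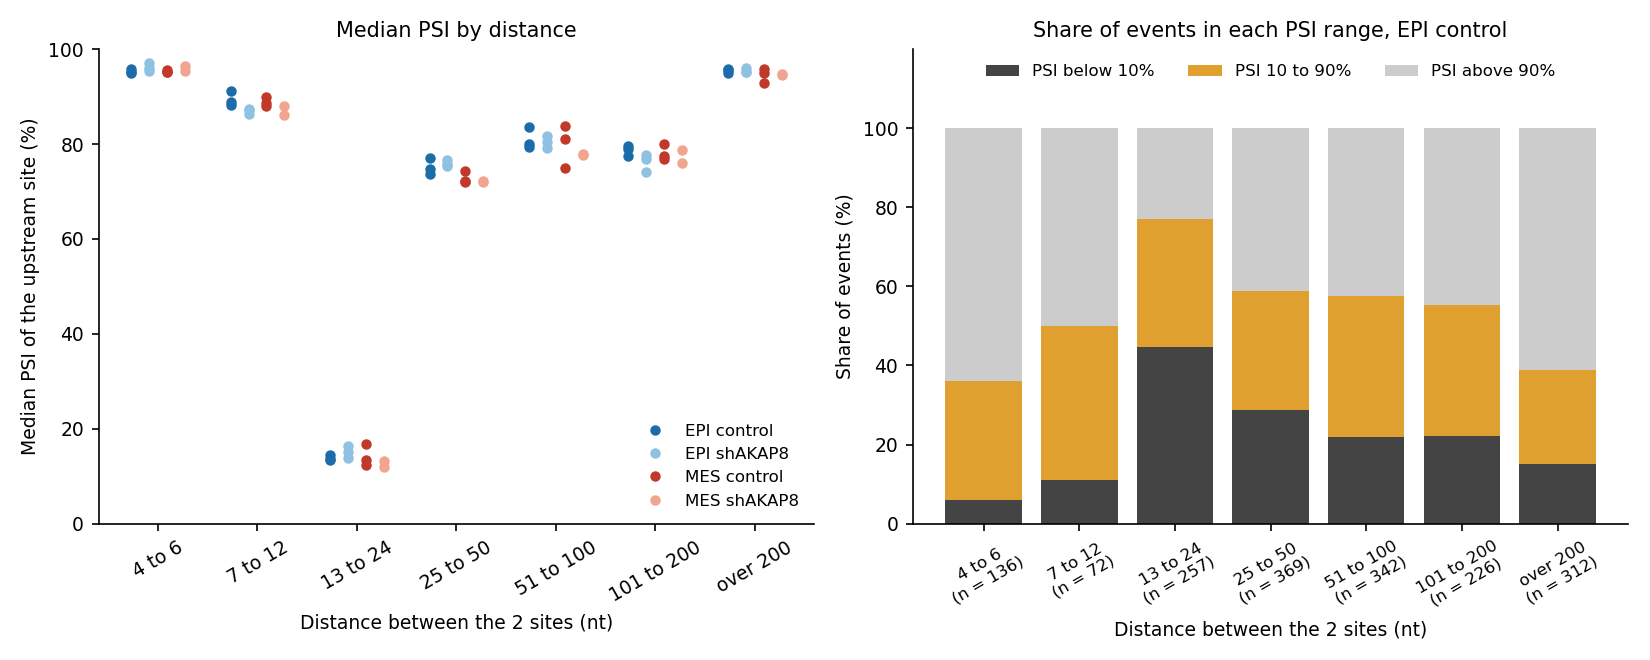
Left, median PSI of the upstream site (%) in each library (1 point a library, coloured by group) for 7 classes of distance between the sites (nt). Right, share of events (%) with PSI below 10%, from 10% to 90% and above 90% in EPI control for the same classes. The class of 13 to 24 nt lies between 11.9% and 16.8% in every library, and all other classes lie above 70%.

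The question of the EMT comparison was which 3′ splice sites differ between EPI and MES control cells. Of 2140 members tested, 28 changed (1.31%), 21 with lower and 7 with higher PSI in MES, and over all 2591 events tested the share was 1.27% (0.81% lower and 0.463% higher). A member was called changed at a false discovery rate (FDR) under 0.05 and a ∆PSI of at least 10 percentage points, by a limma-moderated quasi-binomial test on reads. The changed members came from 28 genes, and in 24 of them the 3 EPI and 3 MES control values did not overlap. Without the size limit, 51 members had an FDR under 0.05, 11 of them higher and 40 lower in MES, against 2.2% of all events. At an unadjusted p under 0.05 with the same size limit there were 115 members (33 higher, 82 lower; 5.37%), against 5.56% of all events. Limma on the logit of PSI gave 0 changed members and 110 at the unadjusted limit, so the 28 calls rest on the test on reads. The median ∆PSI of all members tested was −0.164 points, and 55.8% of members had a ∆PSI below 0. Among 451 events with 3 nt or less between the sites, 5 changed, all of them higher in MES. The median ∆PSI in absolute value was 17.5 points in the changed members and 1.52 points in all members tested.

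**Figure D2:**
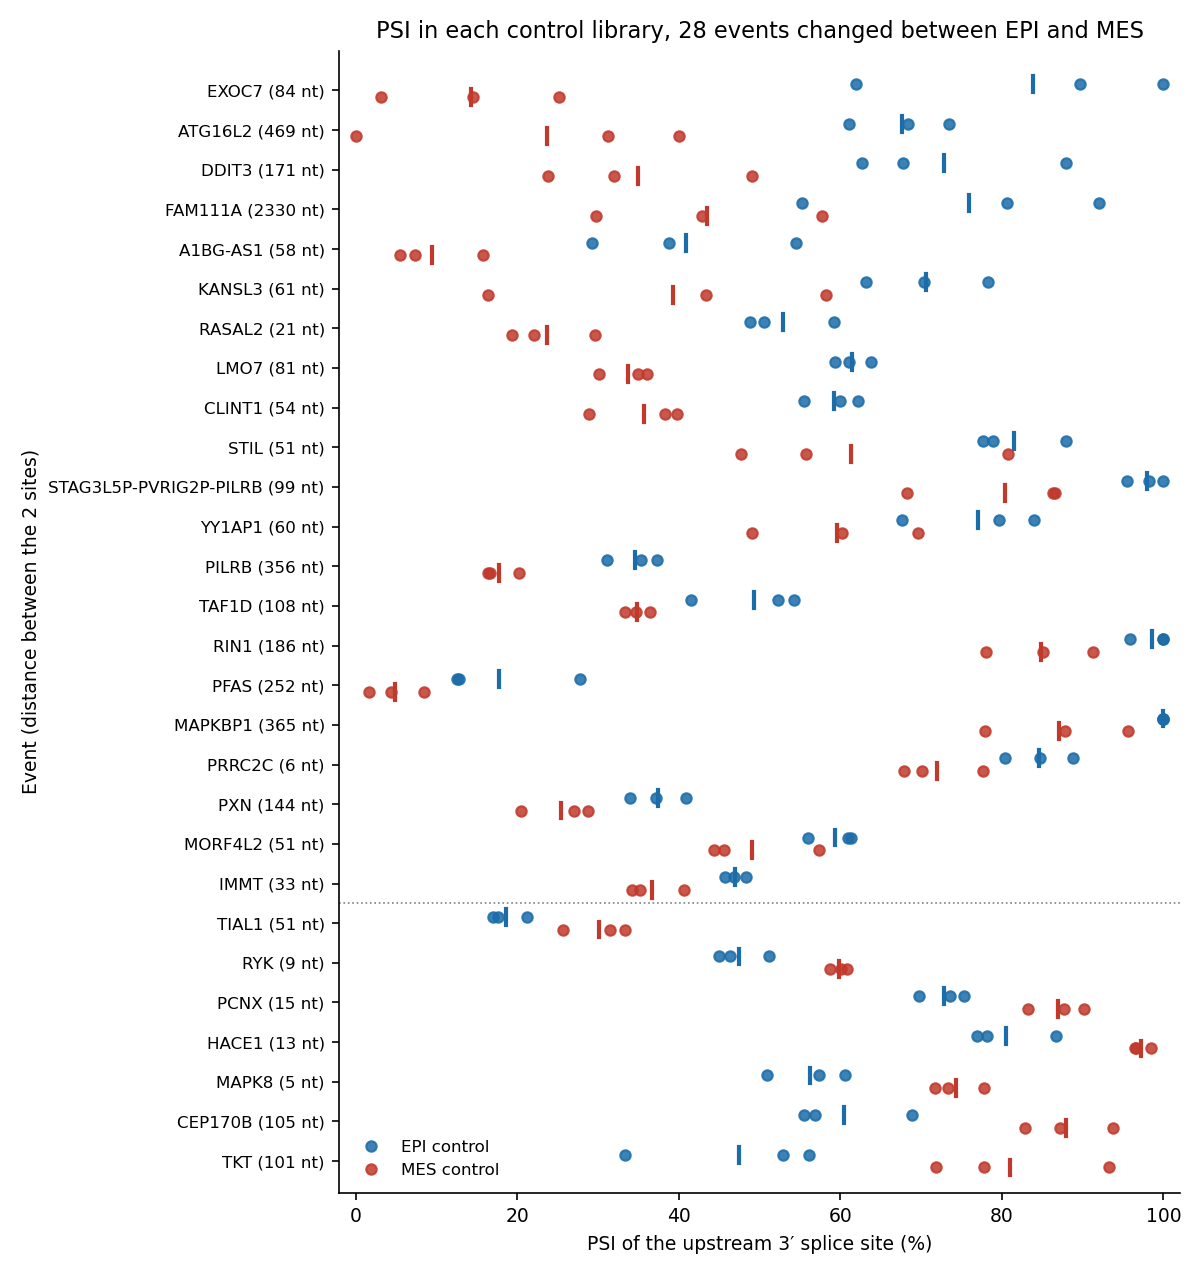
PSI (%) of the 28 members changed between EPI control (blue) and MES control (red), 1 point a library and a bar at the mean of 3 libraries, with the distance between the sites after each gene name. The 21 members above the dotted line had lower and the 7 below it higher PSI in MES, and the groups overlap in STIL, YY1AP1, MORF4L2 and FAM111A.

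The changed members are taken in turn by the known role of the gene, an order chosen after their values were seen that carries no count. CLINT1 encodes a clathrin adaptor of the trans-Golgi network and endosomes, and its 54 nt segment (chr5:157216522-157216575, coding) had PSI values of 59.96%, 55.5% and 62.2% in EPI control and 28.9%, 38.3% and 39.8% in MES control. The groups were well separated, and PSI fell by 23.5 points (FDR = 1.02e-07). EXOC7, a subunit of the exocyst complex that tethers secretory vesicles to the plasma membrane, had an 84 nt coding segment (chr17:74086479-74086562) with PSI values of 100%, 89.7% and 62.0% in EPI control and 3.19%, 25.2% and 14.5% in MES control. Its ∆PSI of −69.6 points (FDR = 0.0021) had the greatest size of all changed members, at an average of only 20.0 reads per library, the minimum for testing. ATG16L2, a relative of the autophagy protein ATG16L1, had PSI values of 73.5%, 68.4% and 61.1% in EPI control and 31.2%, 0.00% and 40% in MES control for its 469 nt segment (∆PSI −43.9 points, FDR = 0.022), at 27.5 reads per library.

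The 81 nt coding segment of LMO7 (chr13:76409288-76409368), a LIM domain protein of adherens junctions, had PSI values of 59.4%, 63.8% and 61.1% in EPI control and 30.1%, 36.1% and 34.9% in MES control. No library of one state came within 20 points of the other state, and the mean fell from 61.4% ± 2.23 to 33.7% ± 3.19 (SD, n = 3; FDR = 1.04e-06). In PXN, which encodes the focal adhesion adaptor paxillin, the 144 nt coding segment was used at 37.4% ± 3.48 in EPI and 25.4% ± 4.37 in MES (∆PSI −12.0 points, FDR = 0.0086). CEP170B, a centrosomal and microtubule-associated protein, moved the other way. Its 105 nt coding segment (chr14:105355852-105355956) had PSI values of 56.8%, 55.5% and 68.9% in EPI control and 93.8%, 82.9% and 87.2% in MES control (∆PSI 27.5 points, FDR = 0.000335).

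RASAL2, a GTPase-activating protein of Ras, has sites 21 nt apart (chr1:178425835-178425855, coding), and PSI was 59.2%, 50.5% and 48.9% in EPI control and 19.4%, 22.1% and 29.6% in MES control. The mean fell from 52.9% ± 5.55 to 23.7% ± 5.30 (FDR = 0.00088). RIN1, a Ras effector that activates RAB5, fell from 98.6% ± 2.38 to 84.8% ± 6.63 for a 186 nt coding segment (FDR = 0.037). MAPKBP1, a binding partner of JNK, had PSI values of 100% in each EPI library and 78.0%, 87.8% and 95.7% in MES for a 365 nt segment (FDR = 0.0023). Among the control libraries, reads of the downstream site of MAPKBP1 were counted in MES only, 22 in all. MAPK8, which encodes the kinase JNK1, rose from 56.3% ± 4.87 to 74.3% ± 3.18 for sites 5 nt apart (FDR = 0.023). HACE1, a ubiquitin ligase that acts on RAC1, rose from 80.5% ± 5.33 to 97.2% ± 1.16 for sites 13 nt apart (FDR = 0.037). The distances in MAPK8 and HACE1 are not multiples of 3, and both segments are coding. RYK, a Wnt receptor related to tyrosine kinases, had PSI values of 45.0%, 51.2% and 46.3% in EPI control and 58.8%, 60.03% and 60.9% in MES control (∆PSI 12.4 points, FDR = 0.0129). Its upstream site, 9 nt before a site that ends in AG, ends in TG.

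DDIT3, a stress-induced transcription factor also called CHOP, had PSI values of 62.7%, 87.9% and 67.7% in EPI control and 31.9%, 23.8% and 49.0% in MES control for a partly coding 171 nt segment (∆PSI −37.9 points, FDR = 0.0097). KANSL3, a subunit of a histone acetyltransferase complex, fell from 70.6% ± 7.55 to 39.3% ± 21.2 at a distance of 61 nt (FDR = 0.023). The fall was uneven, since the MES control libraries stood at 16.4%, 58.2% and 43.4%. TAF1D, a subunit of the RNA polymerase I selectivity factor, fell from 49.4% ± 6.88 to 34.9% ± 1.57 for a 108 nt segment (FDR = 0.011). TIAL1, which encodes the RNA-binding splicing regulator TIAR, rose from 18.6% ± 2.23 to 30.2% ± 4.003 for a 51 nt coding segment (chr10:121342070-121342120; FDR = 0.0021). The chromatin-associated genes MORF4L2 (51 nt, 5′ UTR, ∆PSI −10.3 points) and YY1AP1 (60 nt, −17.4 points) were called changed with overlapping groups.

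TKT, the transketolase of the pentose phosphate pathway, had PSI values of 56.1%, 33.3% and 52.9% in EPI control and 77.8%, 93.2% and 71.8% in MES control for the segment at chr3:53271837-53271937 (∆PSI 33.5 points, FDR = 0.025). PFAS, an enzyme of purine synthesis, had PSI values of 12.8%, 12.6% and 27.7% in EPI control and 1.68%, 4.403% and 8.44% in MES control for a 252 nt segment (∆PSI −12.9 points, FDR = 0.023). Further changed members with non-overlapping groups were A1BG-AS1, an antisense transcript (58 nt, −31.4 points), the readthrough transcript STAG3L5P-PVRIG2P-PILRB (99 nt, −17.5 points), the immune receptor gene PILRB (356 nt, −16.8 points), PRRC2C (6 nt, −12.7 points), the mitochondrial inner membrane organizer IMMT (33 nt, −10.3 points) and PCNX (15 nt, 14.1 points). A second PILRB event with sites 356 nt apart had a ∆PSI of −6.51 points, under the size limit. The readthrough transcript and PILRB overlap in the genome, so their reads can be shared. STIL (51 nt, −20.1 points) and FAM111A (2330 nt, −32.5 points) were called with overlapping groups. PXN, IMMT and the 4 members with overlapping groups were named after their values were seen.

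By location, 16 of the 28 changed members had a coding segment (57.1%), close to the share among all members tested in EMT (1275, 59.6%). A further 6 had a partly coding segment and 2 a segment in the 5′ UTR. In 14 of the 16 coding members the distance was a multiple of 3, as in TIAL1, LMO7, RASAL2 and CLINT1. In all, 19 of 921 tested members with a multiple of 3 changed (2.06%, exact 95% binomial interval 1.25% to 3.20%), compared with 9 of 1219 others (0.738%, 0.338% to 1.40%), and the intervals overlapped slightly. With an unadjusted p under 0.05 and the same size limit the shares were 6.62% (5.1% to 8.43%) and 4.43% (3.35% to 5.74%). At least 10 reads of the rarer form were present in 73.2% and 67.3% of these members, so the 2 sets have unlike bases. The difference between them was not tested. By distance, 10 of 415 members with sites 51 to 100 nt apart changed, 6 of 284 at over 100 and up to 200 nt, 5 of 462 at over 200 nt, 1 of 431 at 25 to 50 nt, 3 of 298 at 13 to 24 nt, 1 of 85 at 7 to 12 nt and 2 of 165 at 4 to 6 nt. Such intervals cover counting error only and treat events as independent, which those of 1 gene are not. By the same test on their own junction reads, each type adjusted separately, 70 of 1631 alternative 5′ splice site events (4.29%) and 692 of 49330 skipped exon events (1.40%) changed. At least 10 reads of the rarer form were present in 69.8% of members, 73.3% of alternative 5′ splice site events and 33.7% of skipped exon events. These shares of changed events therefore have unlike bases.

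**Figure D3:**
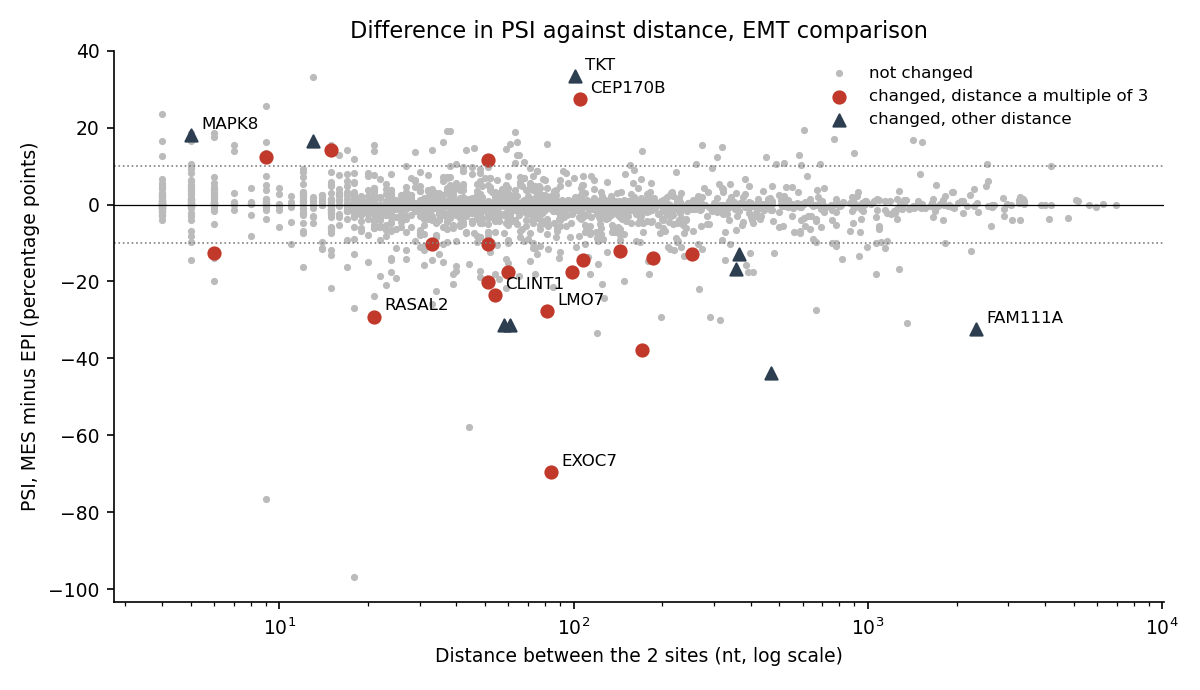
∆PSI of MES minus EPI control (percentage points) against the distance between the sites (nt, log scale) for the 2140 members tested. Grey points did not change, red circles changed with a distance that is a multiple of 3, dark triangles changed with another distance, and dotted lines mark 10 points in either direction. The 3 lowest grey points are MXRA8, IGF2 and ARMCX2, which had at most 1, 2 and 4 reads in any EPI control library.

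The number of members called moved with each library left out. It was 13, 19 and 11 without EPI control 1, 2 and 3, 6 and 8 without MES control 1 and 2, and 63 without MES control 3. In 13 of the 21 lower and 5 of the 7 higher members the PSI of the third MES control lay between the EPI controls and the other 2 MES controls. Of the 63 members changed without it, 49 were lower and 14 higher, and 26 of the 28 were among them. CLINT1, LMO7, RASAL2 and CEP170B remained changed with each of the 6 libraries left out in turn, MAPKBP1 in 5 of the 6, and the other 23 in 4 or fewer, with A1BG-AS1 in none. The sign of ∆PSI was kept for all 28 in each of these fits that tested them.

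**Figure D4:**
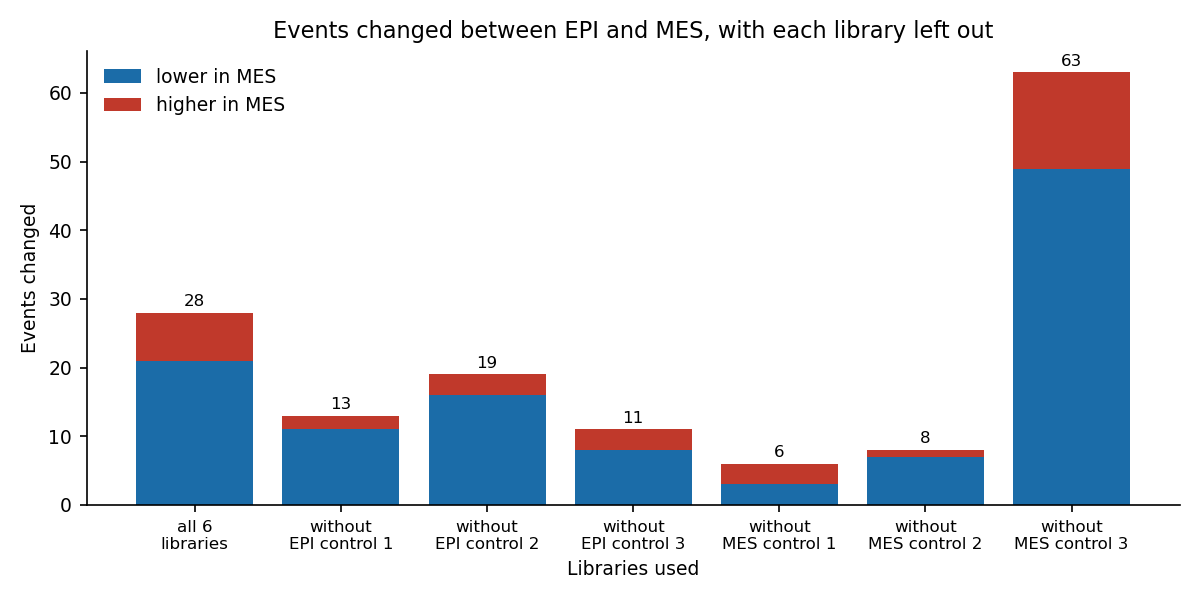
Number of members changed between EPI and MES control cells with all 6 libraries and with each library left out, with lower PSI in MES in blue and higher PSI in red. The count is 28 with all libraries, 63 without the third MES control and 6 to 19 without any other library.

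By lists of genes grouped by function, in EMT 0 of 12 tested members in genes of 3′ splice site recognition changed (median ∆PSI −2.22 points), 1 of 55 in RNA-binding splicing regulators (TIAL1; −0.0819 points), 1 of 21 in adhesion, junction and polarity genes (PXN; −1.09 points) and 0 of 18 in cytoskeletal genes (0.223 points). In genes of membrane trafficking 1 of 33 changed (EXOC7; −0.842 points), in regulators of small GTPases 2 of 34 (RASAL2 and RIN1; −0.908 points) and in chromatin and transcription genes 1 of 55 (TAF1D; 0.836 points). The corresponding values for all members tested were 28 of 2140 and −0.164 points. After knockdown in EPI no member of any of the 7 lists changed, and after knockdown in MES 1 of 17 in cytoskeletal genes did (PFN2). With tested members in only 7 to 39 genes a list, these counts are small.

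The EPI knockdown comparison asked which sites depend on AKAP8 in epithelial cells. Of 2113 members tested 0 changed, as over all 2568 events (0%). At an unadjusted p under 0.05 with the same size limit there were 33 members (12 higher, 21 lower), against 1.64% of all events, and limma on the logit of PSI also gave 0 at an FDR under 0.05 and 33 unadjusted. Without the size limit 4 members had an FDR under 0.05, all with lower PSI after knockdown, against 0.156% of all events. They were FN1 at 285 and 360 nt, PFN2 and DNAJC21, and were named after their values were seen.

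FN1 encodes fibronectin, and its 3 sites lie in the variable region of the protein in which alternative acceptors of 1 exon set the length of the connecting segment. For the event of the middle and the last site (285 nt, chr2:216236739-216237023, coding), PSI was 81.8%, 80.8% and 82.7% in EPI control and 73.3%, 75.3% and 75.1% in EPI shAKAP8. The groups did not overlap, and PSI fell by 7.18 points (FDR = 5.95e-11) at 10340 reads per library. Its inclusion reads can also come from transcripts of the first site, so this PSI is not the share of the middle site alone. In EPI control 1 the event had 5600 inclusion reads. The middle site itself had 999 reads there, as the skipping form of the 75 nt event. For the event of the first and the last site (360 nt) PSI fell by 2.80 points (FDR = 5.95e-11). Both events use the same reads of the last site and can share reads that cross the start of its exon, so they are not independent. The first against the middle site (75 nt) had a ∆PSI of −1.02 points (FDR = 0.065). In MES control cells the 285 nt event stood at 74.2%, 76.4% and 79.5%, and in MES shAKAP8 cells at 65.7% and 71.5% (∆PSI −6.72 points against the 2 MES controls of that comparison, FDR = 0.87). The interaction of state and knockdown had an FDR of 0.9999 for this event, with ∆PSI of −7.18 points in EPI and −8.13 points in MES against all 3 MES controls. Hence a difference between the states was not detected at these library numbers.

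PFN2 encodes profilin 2, an actin-binding protein that promotes filament growth. The 322 nt between its sites (chr3:149684052-149684373) hold coding sequence in part, and PSI was 28.4%, 29.9% and 34.8% in EPI control and 22.6%, 17.9% and 26.6% in EPI shAKAP8. PSI fell by 8.68 points (FDR = 9.30e-06), just short of the size limit. DNAJC21, a co-chaperone of ribosome assembly, had low values throughout, with 7.29%, 7.77% and 8.44% in EPI control and 3.27%, 1.51% and 4.29% in EPI shAKAP8 for a 39 nt coding segment (∆PSI −4.81 points, FDR = 0.019). The MES control libraries of DNAJC21 stood at 1.24%, 3.15% and 3.38%.

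The members that came nearest to a call in EPI did not pass the test. With FDR values of 0.275 to 0.63 and groups that did not overlap, ∆PSI was 29.6 points in GPS1, a subunit of the COP9 signalosome, 23.6 in HYAL3, 15.7 in RNF111, 13.5 in CEP170B, 13.1 in ISOC2 and 10.6 in RPS6KA4. It was −29.2 points in A1BG-AS1, −21.0 in MRPL55, −20.4 in CAPN10 and −11.9 in RBM42. GPS1 had PSI values of 12.1%, 5.995% and 18.1% in EPI control and 25.5%, 50.6% and 48.9% in EPI shAKAP8, at 29.3 reads per library.

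In mesenchymal cells 2 of 1948 members changed after AKAP8 knockdown, PFN2 and PFDN5, both with lower PSI, and over all 2385 events the share was 0.0839%. Limma on the logit of PSI gave 0 changed members and 44 at the unadjusted limit, so neither call held there. There were 41 members at an unadjusted p under 0.05 with the size limit (15 higher, 26 lower), against 2.18% of all events. Without the size limit 5 members had an FDR under 0.05, against 0.21% of all events. PFN2 had PSI values of 34.2% and 32.3% in the MES controls of this comparison and 18.8% and 18.9% in MES shAKAP8, and the third MES control stood at 38.99%. Its ∆PSI was −14.5 points (FDR = 9.05e-26) at 2347 reads per library, and −13.5 to −15.4 points with each library left out, still changed each time. PFN2 thus fell after knockdown in both states, below the size limit in EPI. The interaction had an FDR of 0.69 for PFN2 and was not called.

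PFDN5 encodes a subunit of prefoldin, a chaperone of unfolded actin and tubulin. Its sites lie 1420 nt apart (chr12:53690214-53691633), and PSI was 76.5% and 90.3% in MES control and 42.4% and 43.1% in MES shAKAP8 (∆PSI −40.6 points, FDR = 0.0099), with 68.9% in the third MES control. The EPI libraries varied widely, from 45.5% to 75% in control and from 47.8% to 70.4% after knockdown. With any of the 4 libraries left out PFDN5 was no longer called, at ∆PSI values of −33.7 to −47.6 points.

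The other 3 members with an FDR under 0.05 in MES had ∆PSI values under the size limit and were named after these were seen. CTNNB1 encodes β-catenin, which links cadherins to the actin cytoskeleton and acts in Wnt signalling, and its 159 nt segment lies in the 3′ UTR (chr3:41281151-41281309). Its PSI was 56.8% and 57.0% in MES control and 46.0% and 50.4% in MES shAKAP8 (∆PSI −8.72 points, FDR = 8.15e-06), with 53.2% in the third control. The event with a more distant upstream exon and the same site pair had a PSI of 99.8% ± 0.328 in MES control and 99.5% ± 0.0551 in MES shAKAP8. It had only 6, 0 and 1 skipping reads in MES control. Both events can count the same reads across the start of the short exon, so this PSI does not give the site choice from that exon. DDX39B, an RNA helicase that helps U2AF recruit the U2 particle to the 3′ splice site, had PSI values of 70.0% and 69.8% in MES control and 61.7% and 59.1% in MES shAKAP8 for a 130 nt segment (∆PSI −9.51 points, FDR = 0.00052). The third control of DDX39B stood at 71.1%. LRRC75A-AS1, a noncoding host of small nucleolar RNAs, had a ∆PSI of 2.95 points (FDR = 0.0050) for a 604 nt segment.

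**Figure D5:**
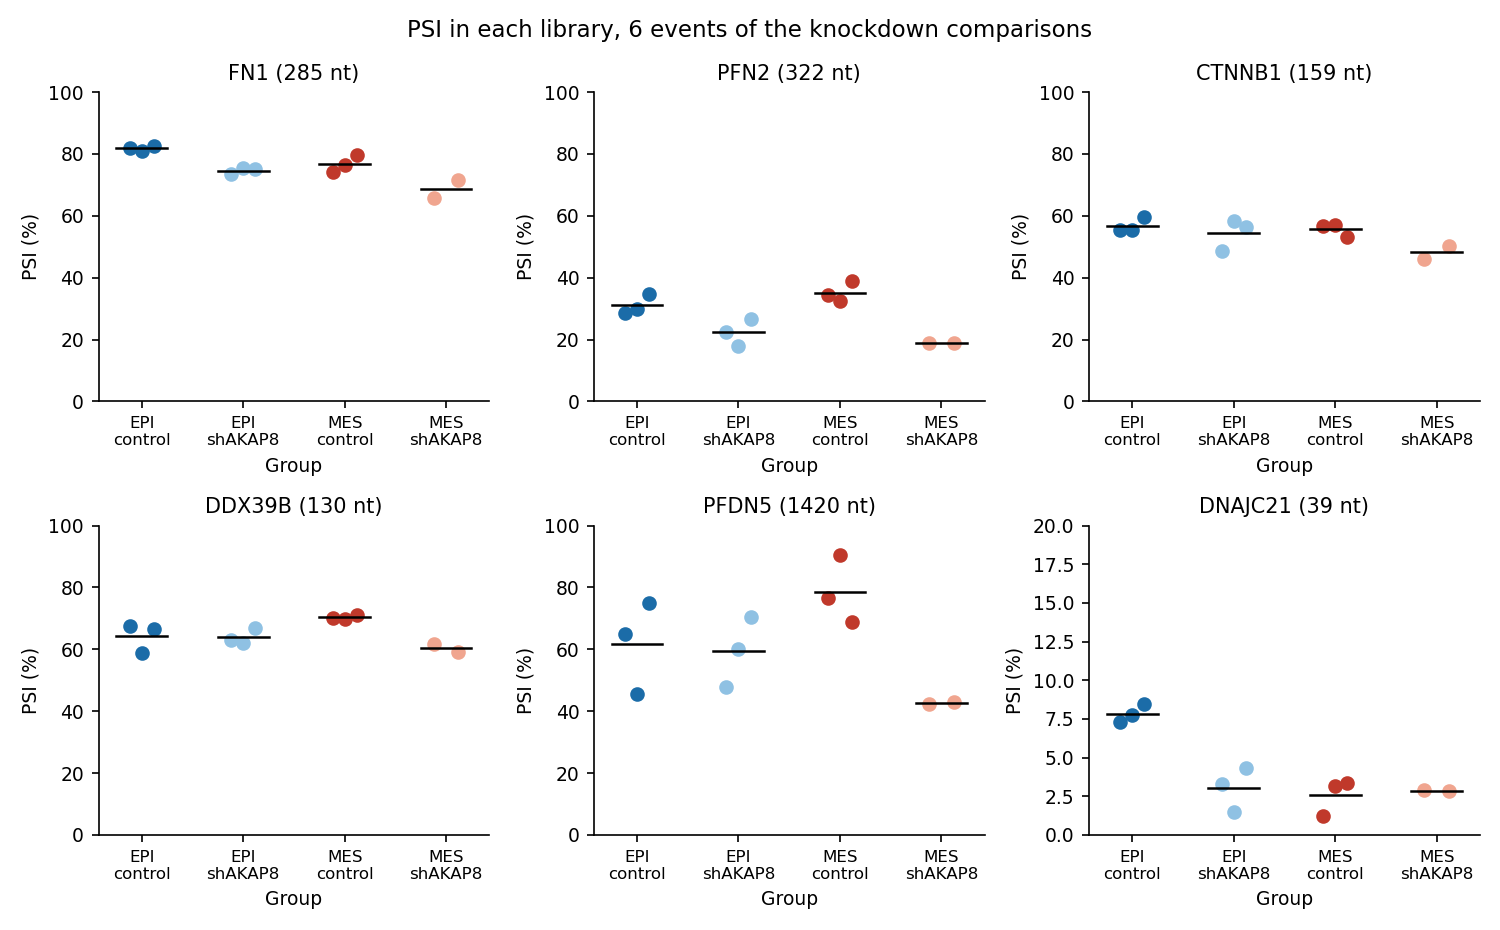
PSI (%) in each library of the 4 groups for 6 members, 1 point a library and a bar at the group mean (3, 3, 3 and 2 libraries). The axis of DNAJC21 ends at 20%. PFN2 lies lower after knockdown in both states, FN1 at 285 nt likewise, and PFDN5 after knockdown in MES with a wide spread in the controls.

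Members that did not pass in MES but whose groups did not overlap included TAF1D (∆PSI −13.7 points, FDR = 0.056), MAP4K4 (−11.1 points, FDR = 0.072) and TRIQK (−22.2 points, FDR = 0.077). For C7orf43, PPP1R21, FAM135A, FAM122B and DCAF4, ∆PSI was −23.1, −15.5, 26.6, 18.2 and −14.7 points at FDR values of 0.17 to 0.40. With the third MES control added to the fit, 5 members changed, PFN2, PFDN5, TAF1D (−14.4 points), C7orf43 (−23.8 points) and a second PXN event at 144 nt (−20.9 points).

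Whether the knockdown effect depended on the state was tested in 1822 members. The interaction was called in 0 of them, as over all 2258 events (0%), while 43 had an unadjusted p under 0.05 and differed by at least 10 points, against 2.21% of all events. The smallest FDR in the limma-moderated fit was 0.50. TMEM218, a membrane protein of cilia, had PSI values of 77.1%, 50% and 51.2% in EPI control, 33.9%, 36.6% and 30% in EPI shAKAP8, 36.0%, 38.5% and 36.6% in MES control, and 63.6% and 72.0% in MES shAKAP8. These values rest on few reads, in EPI control 27, 28 and 7 for inclusion and 6, 21 and 5 for skipping. In MES shAKAP8 there were 14 and 24 inclusion and 6 and 7 skipping reads. The groups of TMEM218 were separated in both states and in opposite directions, yet the interaction did not pass (FDR = 0.50). Nor did it pass for KRIT1 (difference between the effects −42.6 points), A1BG-AS1 (41.8), HYAL3 (−37.9), C7orf43 (−28.4), OSGEPL1 (20.1), STAG3L5P-PVRIG2P-PILRB (19.5), PPP1R21 (−17.4), CRNDE (−15.7) and CABYR (14.4), with FDR values of 0.50 to 0.69.

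The members that changed in EMT were also examined after knockdown. Of the 28, 27 were tested in EPI and 26 in MES, and 0 changed in either. Of these 27 and 26, 4 and 2 met the size limit with an unadjusted p under 0.05, against 1.56% and 2.1% of all members tested. The ∆PSI of the EMT-changed members ranged from −29.2 to 20.5 points in EPI (median absolute value 5.86 points) and from −13.7 to 14.5 points in MES (3.74 points), compared with medians of 1.25 and 1.54 points over all members tested. The EMT comparison shares the EPI controls with the EPI knockdown comparison and MES controls with the MES knockdown comparison, so these values are not independent of the EMT differences. Side by side, CLINT1 had mean PSI values of 59.2% in EPI control, 52.2% in EPI shAKAP8, 35.7% in MES control and 31.0% in MES shAKAP8. LMO7 stood at 61.4%, 57.0%, 33.7% and 30.1%, and RASAL2 at 52.9%, 46.9%, 23.7% and 17.6%, in the same order. CEP170B stood at 60.4%, 74.0%, 87.9% and 89.7%. These 4 were chosen for the stability of their EMT calls, so a large difference between the states was fixed by the choice.

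Sites bound by AKAP8 were mapped by enhanced cross-linking and immunoprecipitation (eCLIP), with peaks merged over 2 replicates in each state. A peak with a log2 enrichment over input of at least 2 lay within 500 nt of a site in 75 of 2918 members in EPI (2.57%, exact 95% binomial interval 2.03% to 3.21%; 42 genes) and in 24 in MES (0.822%, 0.528% to 1.22%; 19 genes), with 16 members in both. Among the 695 events with sites 3 nt apart or closer, 7 had a peak in EPI (1.01%) and 8 in MES (1.15%). A peak near either site counted, so more sequence was searched for members with distant sites than for these events. Of the 28 members that changed in EMT, 0 had a peak within 500 nt in EPI (interval up to 12.3%), and 1 had such a peak in MES, PILRB at 377 nt. Within 2000 nt, 5 of the 28 had a peak in EPI (17.9%, interval 6.06% to 36.9%) and 3 in MES (10.7%, 2.27% to 28.2%). Over all members the shares within 2000 nt were 7.51% and 3.6%. Neither PFN2 nor PFDN5 had a peak within 500 nt in either state. GPS1 had an EPI peak 60 nt from its segment.

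Knockdown effects were also set out by the presence of a peak. Of 51 members with an EPI peak that were tested in EPI, 0 changed and 2 passed the unadjusted limit, compared with 0 and 31 of the 2062 others. The median absolute ∆PSI was 1.08 and 1.26 points. Of 16 members with a MES peak that were tested in MES, 0 changed and 0 passed the unadjusted limit, compared with 2 and 41 of the 1932 others, with medians of 1.76 and 1.54 points. The difference between members with and without a peak was not tested.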

How the data were processed

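Paired-end reads of stranded poly(A) libraries were aligned to GRCh37 by the authors, who used STAR, and junction reads of annotated events were counted with rMATS. The deposited junction tables list, for each group, the inclusion and skipping reads of its libraries in 1 field, which was taken apart library by library as counts. The 30 deposited per-library PSI columns were not used, nor were the columns of the authors' own comparisons (p-value, FDR and difference in PSI) and the authors' gene table of DESeq2 fold changes made after featureCounts. For eCLIP, the authors deposited merged peaks with a log2 enrichment over input and a −log10 p-value, and peaks with a log2 of at least 2 and a −log10 p of at least 3 were used.

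PSI was computed as inclusion reads over their effective length, divided by the sum of this and skipping reads over theirs. Testing required a mean of at least 20 junction reads per library and used a quasi-binomial likelihood-ratio F test of reads, 1 probability per group. Dispersion was moderated with limma 3.58.1 (R 4.3.3), with a robust trend on the reads of the rarer form and a floor of 1, and events with fewer than 10 such reads took the trend. P-values were adjusted (Benjamini-Hochberg) over all alternative 3′ splice site events of a comparison. The interaction was tested over all 11 libraries. The design had assumed separate count columns, and the script was tested on simulated data. The smallest exact permutation p for 3 against 3 libraries is 0.1, so single events were not tested that way.

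Named were changed members with non-overlapping groups, up to 15 per direction, and, where fewer than 10 changed, members with the smallest unadjusted p to make 10. Members, gene lists and tests were chosen with earlier results of these data known. Positions were annotated with Gencode release 44 on GRCh37 (the authors used release 24), and sequences were read from GRCh37. The alternatives were other read minima, dispersion trends, size limits, adjustments, PSI without lengths, limma on the logit of PSI (0.5 reads added), other peak limits and each library left out.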

Additional observations from a re-analysis of the deposited data

How the results depend on the processing

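In EMT the count of 28 changed members became 25 to 40 under the other read minima, dispersion trend, adjustment, PSI without lengths and size limit of 5 points, 0 (110 unadjusted) with limma on the logit of PSI, and 6 to 63 with each library left out. No result changed its direction. Leaving out 1 library gave 164 values for the 28 members, of which 74 kept the call and 90 lost it. RIN1, MAPKBP1 and MORF4L2 lost it without effective lengths. In the EPI knockdown the count of 0 became 1 without effective lengths (PFN2, −10.9 points), 2 with a size limit of 5 points (PFN2 and FN1 at 285 nt) and 0 to 1 with each library left out, namely ECI2 (11.5 points), TIMM17B (14.1 points) or PFN2 (−10.8 points) without shAKAP8 library 1, 2 or 3. In the MES knockdown the count of 2 became 5 with the trend on all reads, 0 (44 unadjusted) with limma, 4 with a size limit of 5 points, 5 with the third control and 1 to 5 with each library left out, where 1 library may stand for a group and is assumed to vary like the others. Without shAKAP8 library 1 it was 5 and without control 2 it was 1. With each library left out PFN2 was called each time and PFDN5 never. The interaction stayed at 0 in the alternatives run for it. Members with a peak numbered 22 in EPI and 4 in MES within 100 nt, and 219 and 105 within 2000 nt. The causes were not tested. No paired analysis was possible because the tables carry no replicate number for the libraries. With 2 or 3 libraries a group and events of few reads, such as EXOC7, the absence of a call says little.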
